A study of Solanum lycopersicum with 24 samples.

Results

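The response of tomato anthers to prolonged mild heat was compared between the earliest and the latest of 3 sampled stages of male development. For every gene, the log2 change from control to heat at the tetrad stage was subtracted from the same change at the polarized microspore stage. A positive value of this difference means a heat effect shifted upwards at the polarized stage. The comparison used 16 of the 24 libraries, 4 in each of 4 groups, and the other 8 libraries, from the free microspore stage between them, had weight 0 in it and entered only the scaling, the filter on low counts and the estimate of the spread. The groups were fixed by the labelled stage and temperature, not by any measured value.

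All plants were of the dwarf tomato cultivar Micro-Tom (Solanum lycopersicum), with no genetic difference given between groups, and grew under a photoperiod of 12 h. Control plants (CT) had days at 25 °C, nights at 19 °C and a relative humidity of 50%. Once flowering, plants for long-term mild heat (LTMH) were moved to days at 34 °C, nights at 28 °C and a relative humidity of 68%, so that air humidity changed together with temperature. Tetrad stage anthers were collected after 4 days, free microspore anthers after 6 days and polarized microspore anthers after 8 days, about 5 h into the light period. Stage and length of exposure therefore cannot be told apart. Each library came from 6 pooled anthers, and the labels name no separate plants behind the replicates of a group. The p-values then measure only the spread between these samples, which may be technical.

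A tetrad holds the products of male meiosis inside a common callose wall, which enzymes from the surrounding tapetum dissolve to release the microspores. The tapetum is the innermost layer of the anther wall, feeds the developing pollen, supplies material for the pollen coat and then degenerates. In a polarized microspore the nucleus has moved to the periphery ahead of the asymmetric division that forms the vegetative and the generative cell. Temperatures a few degrees above the optimum, held for days, are known to lower pollen viability in tomato. In bulk anthers, fewer cells of a type and less RNA per cell cannot be told apart, and a given transcript may come from the wall or from the microspores.

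Library totals lay between 15657765 and 22987661 reads, and 21429 of 35768 listed genes had enough reads to be tested. The files do not pair identifiers with gene names, so genes are given by identifier and the labelled tissue and stages could not be checked against marker genes. In these identifiers the digits after Solyc are the chromosome. Strand was not stated for the counting, so reads of overlapping antisense genes and of near-identical copies may not be told apart.

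The heat effect differed between the stages for 876 genes (edgeR quasi-likelihood test, Benjamini-Hochberg adjusted p below 0.05), and these followed a common pattern. In 581 genes, 2.71% of those tested, heat acted more positively at the polarized stage. In 295 genes, 1.38% of those tested, it acted more negatively there. The more positive genes were for the most part transcripts that normally decline from tetrad to polarized stage, and the more negative ones were for the most part transcripts that normally rise. The difference equals the developmental change in LTMH minus that in CT, so a shallower decline or rise in LTMH follows from how the genes were chosen. For the same reason the choice favours genes that decline or rise in CT. The differences of the more positive genes were the larger ones, with a median size of 1.06 on the log2 scale (interquartile range 0.69 to 2), against 0.65 (0.46 to 1.14) for the more negative genes and 0.26 for all genes tested. A difference of at least 2-fold was seen in 309 of the 581 genes and of at least 4-fold in 146. Of the 295 genes, 88 reached 2-fold and 22 reached 4-fold. Among genes with reads in every group the largest log2 differences were 6.52 and -3.67. The last gene inside the threshold had an adjusted p of 0.04998 and a log2 difference of 0.64, and the next one outside had 0.05021 and 0.40. The balance of directions depended on scaling: 66.3% of calls were more positive here, 23.3% with library totals alone (475 and 1560 genes) and 29.8% in limma on log2(FPKM + 1) (689 and 1623 genes). Those settings moved the median difference of all genes from 0 to -0.15 and -0.11 (log2).

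**Figure D1:**
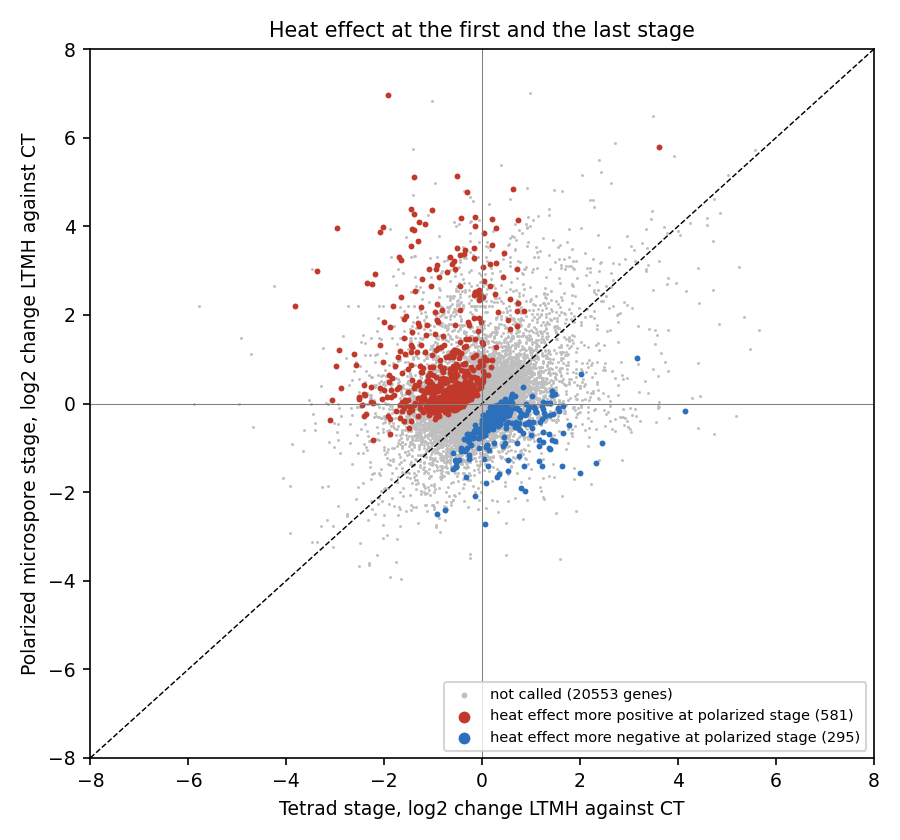
Log2 change from CT to LTMH at the tetrad stage (horizontal) against the same change at the polarized microspore stage (vertical), 1 point per tested gene, with the 581 more positive genes in red, the 295 more negative genes in blue and equal effects on the dashed line; 3 genes lie outside the axes. Most red points sit left of or above zero change and most blue points right of or below it, and the red cloud reaches farther from the line.

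How the difference arose varied between genes. Heat lowered 341 of the 581 more positive genes at the tetrad stage with no call at the polarized stage, a pattern found in 9.17% of all genes. Another 169 were higher in LTMH at the polarized stage alone, beside 5.33% of all genes. A further 47 genes, 0.219% of those tested, were lower at the tetrad and higher at the polarized stage. These are every gene called in that pair of opposite directions. Lower in LTMH at both stages were 5 genes and higher at both were 5, where 3.56% and 2.77% of all genes had these calls. Called at neither stage were 14 genes, against 66.4% of all genes. Larger differences had another make-up. Of the 146 genes at 4-fold or more, 72 were higher at the polarized stage only, 51 lower at the tetrad stage only and 17 both. The 4-fold limit was chosen with the data in view, and these counts use the libraries that define the difference, so they are a description.

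The 295 more negative genes split almost evenly between the stages. Heat lowered 133 of them at the polarized stage alone, beside 7.07% of all genes. It raised 118 at the tetrad stage alone, beside 5.39% of all genes. Another 15 genes, 0.07% of those tested, were raised by heat in tetrad and lowered in polarized anthers, which are again all genes with that pair of calls. Lower at both stages were 19 genes, higher at both were 4, and 6 were called at neither, beside 3.56%, 2.77% and 66.4% of all genes. The 88 genes of at least 2-fold were split less evenly: 52 were raised at the tetrad stage alone and 25 lowered at the polarized stage alone. With library totals as the only scaling, 312 of the 581 genes were called lower at the tetrad and 216 higher at the polarized stage, while 198 of the 295 were raised in tetrad and 155 lowered in polarized anthers. With TMM scaling these 4 counts were 393, 221, 137 and 167, where 12.9%, 8.32%, 8.23% and 10.7% of all genes had the same call.

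At the free microspore stage, whose libraries had no weight in the difference, the median heat effect of both groups was near 0. Among the 581 more positive genes, 27 were higher and 37 lower in LTMH at the free microspore stage, which is 4.65% and 6.37%, beside 4.21% and 4.61% of all genes tested. Their median log2 change was -0.08 (interquartile range -0.28 to 0.11), between the medians of -0.64 at the tetrad and 0.32 at the polarized stage. Among the 295 more negative genes, 24 were higher and 36 lower, which is 8.14% and 12.2%, with a median of -0.07. The median over all tested genes was -0.02.

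In normal development, 523 of the 581 more positive genes fell from the tetrad to the polarized stage in CT and 1 rose, where 32.6% of all genes fell and 31% rose. The median log2 change of the 581 genes was -1.32. In LTMH, 218 fell and 94 rose (27.4% and 25.5% of all genes), with a median of -0.26. These steps share libraries with the difference itself, so the 2 temperatures were also averaged. That average is uncorrelated with the difference only where all groups are equally precise. Of the 581 genes, 96 (16.5%, against 8.93% of all genes) had a mean under 0.5 CPM in polarized CT, and 24 in polarized LTMH. The average is therefore not free of the choice of genes. In the average, 464 genes were lower at the polarized stage and 34 higher, with a median of -0.79, beside 36% lower and 34.3% higher among all genes.

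The more negative genes ran the opposite way. In CT, 232 of the 295 rose from the tetrad to the polarized stage and 11 fell, with a median log2 change of 0.62. In LTMH, 95 rose and 86 fell, with a median of 0.02. Averaged over temperatures, 185 were higher and 46 lower at the polarized stage, with a median of 0.32. Of the 88 with a difference of at least 2-fold, 40 (45.5%) were higher and 24 (27.3%) lower on that average. Among all genes 34.3% were higher and 36% lower.

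**Figure D2:**
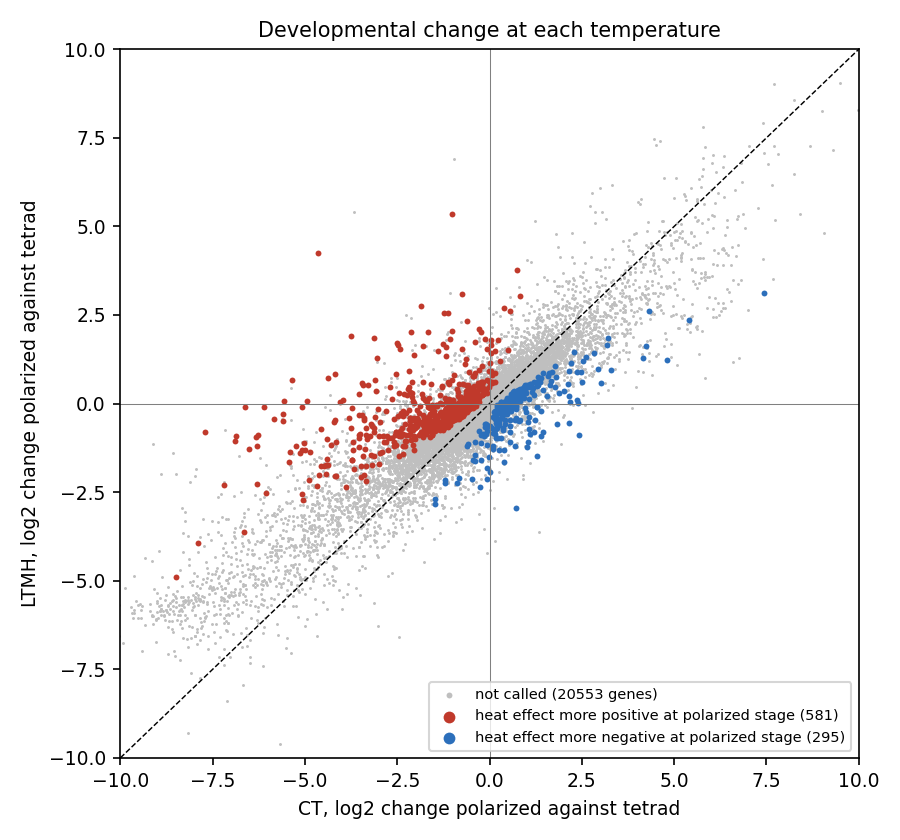
Log2 change from tetrad to polarized stage in CT (horizontal) against the same change in LTMH (vertical), 1 point per tested gene, with the more positive genes in red, the more negative genes in blue and equal changes on the dashed line; 10 genes lie outside the axes. Red points lie above the line and mostly left of zero, blue points lie below it and mostly right of zero.

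The calls for the developmental change in CT and LTMH combined in several ways. Of the 581 genes, 269 fell in CT with no call in LTMH (8.98% of all genes did so) and 218 fell at both temperatures (23.4% of all genes). A further 36 fell in CT but rose in LTMH. That last pattern was found in 38 genes in all, 0.177% of those tested. Another 57 genes rose in LTMH alone, as did 3.74% of all genes, and 1 rose at both, as did 21.6% of all genes. Of the 295 genes, 114 rose in CT with no call in LTMH (9.31% of all genes) and 95 rose at both temperatures (21.6% of all genes). A further 23 rose in CT but fell in LTMH. Of all genes 24, or 0.112%, had that last pattern. The other genes were 52 that fell in LTMH alone, as did 3.91% of all genes, and 11 that fell at both, as did 23.4%. A missing call does not show that a gene was stable, and the direction of these shifts is fixed by the choice of genes.

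The decline in CT was spread over both steps. From tetrad to free microspore 422 of the 581 genes fell, against 21.6% of all genes. From free to polarized microspore 325 fell, against 21.4%, and 222 fell at both steps, against 8.21%. In LTMH, 79 fell at the earlier step and 69 at the later one, against 12.4% and 13.9% of all genes. Of the 295 more negative genes, 153 rose at the earlier CT step and 174 at the later one, and 105 at both, against 19.1%, 19.6% and 6.44%. In LTMH, 32 rose and 57 fell at the earlier step, and 43 rose and 51 fell at the later one, where 8.95% and 12.1% of all genes rose.

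The more positive genes were also grouped by the timing of their decline in CT. The 185 more positive genes that fell in CT only between tetrad and free microspore had median log2 heat changes of -0.73 at the tetrad, -0.06 at the free and 0.14 at the polarized stage. For the 222 genes that fell at both steps the medians were -0.77, -0.14 and 0.28. The 98 genes that fell only between free and polarized microspore had -0.45, -0.08 and 1.75. The 52 genes with no call at either CT step had -0.37, 0.05 and 0.95. Genes with an early decline were thus mainly lower in heated tetrad anthers, and genes with a late decline mainly higher in heated polarized anthers. Both the CT steps and the heat effects use the CT libraries, so this ordering is a description with no test. The more negative genes showed little such ordering: the 47 that rose in CT only at the earlier step had medians of 0.30 at the tetrad and -0.28 at the polarized stage, and the 67 that rose only at the later step 0.30 and -0.44. Among all tested genes with the same courses, the medians at the tetrad and polarized stages were -0.27 and -0.01 (2523 genes), -0.51 and 0.18 (1759), -0.08 and 0.18 (2315), and 0.02 and 0.02 (7906).

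**Figure D3:**
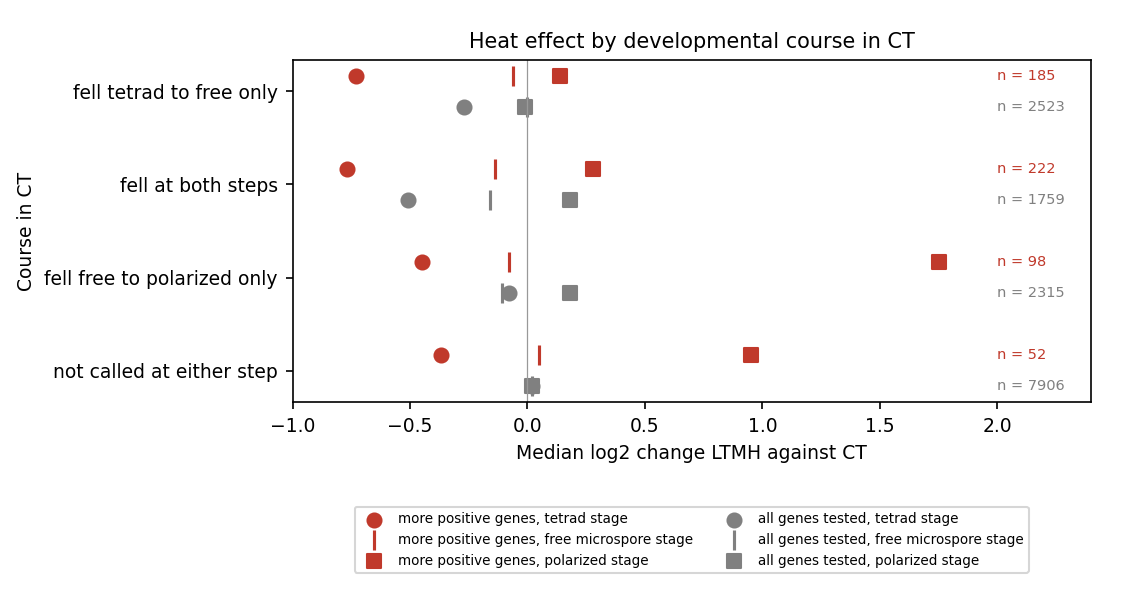
Median log2 change from CT to LTMH (horizontal) at the tetrad (circles), free microspore (bars) and polarized stage (squares), for genes grouped by their course in CT (vertical), with the more positive genes in red and all tested genes in grey. The red square of the 98 genes that fell only between free and polarized microspore stands at 1.75, and the red circles of genes that fell earlier stand at -0.73 and -0.77.

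The genes with the steepest decline were seldom among those called. Genes were binned by their averaged log2 change from tetrad to polarized stage, with limits chosen after the data were seen. Of the 305 genes that fell by 6 or more, 1 was called more positive, although their median log2 difference of the heat effect was 2.27. The median standard error there was 1.55. Of 867 genes between -6 and -3, 38 or 4.38% were called more positive (median difference 1.25, median SE 1.01). Of 2537 genes between -3 and -1 it was 190 or 7.49% (0.45, 0.43). Of the 15700 genes within 1 of no change, 344 or 2.19% were called more positive and 245 or 1.56% more negative (median difference -0.03, median SE 0.18). Of 1612 genes between 1 and 3, 34 or 2.11% were called more negative, with a median difference of -0.27. With errors of this size, a difference of about 4-fold was not detectable in most of the steepest genes.

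The 4 polarized CT libraries differed in these 305 steep genes. Their summed level fell from between 91381.8 and 151043.2 CPM (reads scaled to a common library total) in the 4 tetrad CT libraries to 310.6, 1615.0, 876.2 and 181.5 CPM in polarized CT replicates 1 to 4. Polarized LTMH libraries held 1600.8, 1284.9, 1223.8 and 1304.2 CPM, so polarized CT replicate 2 lay above all of them. Their median level, which a few abundant genes do not carry, was 0.049, 0.352, 0.0615 and 0.0542 CPM in polarized CT. It was 0.599, 0.536, 0.549 and 0.461 CPM in polarized LTMH, with every heated library above every control. In polarized CT replicates 1, 3 and 4 the median is about 1 read, which is the counting floor.

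Libraries of 1 group lay close together over the called genes. The median over the 581 genes of a library's log2 CPM, relative to each gene's mean over all libraries, was 0.83, 0.84, 0.70 and 0.59 in tetrad CT and 0.13, 0.16, 0.00 and -0.11 in tetrad LTMH. In polarized CT it was -0.51, -0.47, -0.51 and -0.49, and in polarized LTMH -0.20, -0.19, -0.18 and -0.14. The range from the tetrad to the polarized stage thus narrowed at both ends under heat, and no group overlapped another. The genes were chosen in these same libraries for a large difference beside the spread. That choice favours the narrowing, the separation and the closeness within groups, so none of them is a test. Free microspore libraries spread from -0.22 to 0.22 in CT and from -0.20 to 0.03 in LTMH, with overlap.

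The 146 genes of at least 4-fold stood at 1.4, 1.67, 1.18 and 1.14 in tetrad CT and at -0.04, 0.57, -0.07 and -0.20 in tetrad LTMH. In polarized CT they stood at -1.56, -1.61, -1.71 and -1.68, and in polarized LTMH at -0.37, -0.08, -0.18 and 0.25. All 4 polarized CT libraries were low to a similar degree, which the choice of genes in these libraries favours. These genes were close to undetected there: 89 of the 146 (61%) had a mean under 0.5 CPM in polarized CT, beside 8.93% of all genes, and 22 in polarized LTMH. Their median level was 0.246 to 0.352 CPM in the polarized CT libraries and 1.16 to 1.64 CPM in the polarized LTMH libraries. Genes with at least 1 read numbered 23457 to 24012 in polarized CT and 24223 to 24551 in polarized LTMH libraries, against 24443 to 24917 in tetrad CT and 24709 to 25550 in tetrad LTMH. The part of this wider detection in the result was not tested.

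The 295 more negative genes mirrored this at smaller size. Their medians were -0.24, -0.30, -0.31 and -0.24 in tetrad CT and -0.06, -0.06, -0.05 and -0.04 in tetrad LTMH. They were 0.37, 0.34, 0.42 and 0.30 in polarized CT and 0.00, -0.01, -0.02 and -0.02 in polarized LTMH. These values come from the libraries that chose the genes and carry no test.

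**Figure D4:**
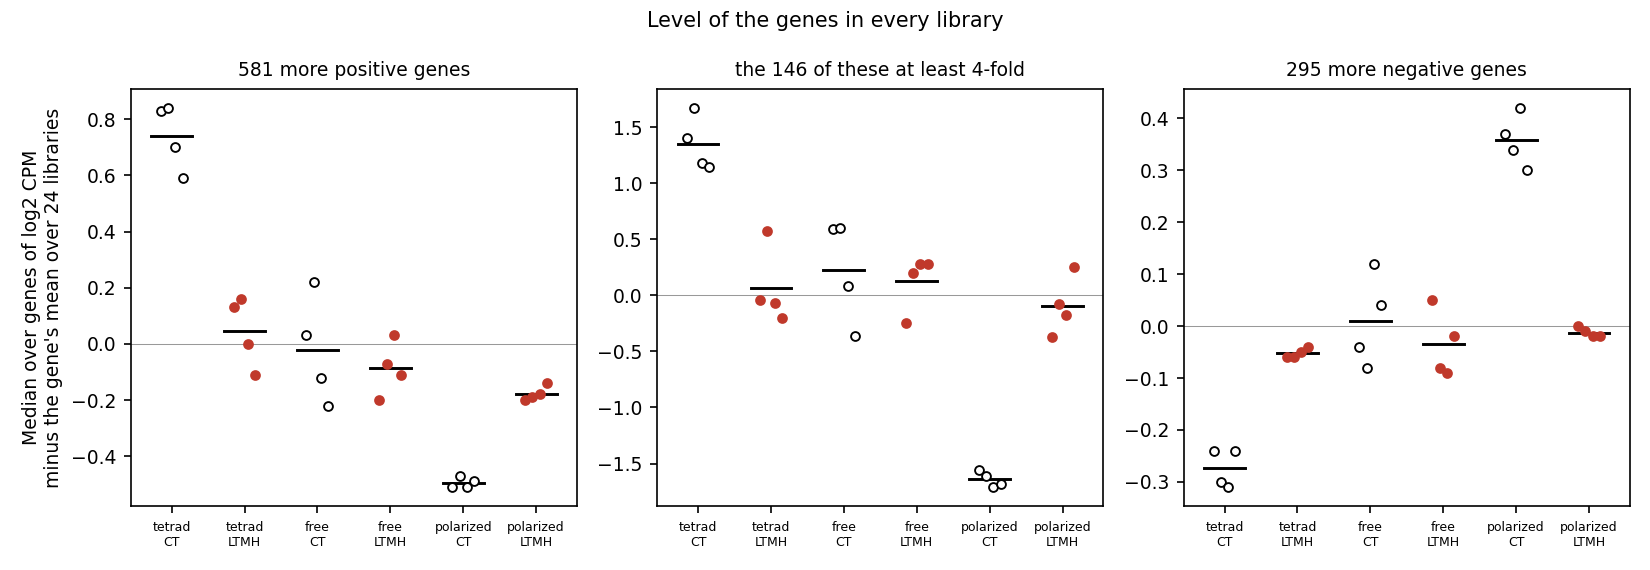
Median over the 581 more positive genes, the 146 of them with a difference of at least 4-fold and the 295 more negative genes of each gene's log2 CPM relative to its mean over 24 libraries (vertical), by stage and temperature (horizontal), 1 circle per library (open CT, filled LTMH) and a line at the group mean. CT libraries move from 0.59 or more to -0.47 or less in the left panel, and LTMH libraries stay between -0.20 and 0.16.

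Both groups had genes on every chromosome. Over chromosomes 1 to 12, the share called more positive ranged from 1.94% (44 of 2266) on chromosome 3 to 3.99% (93 of 2331) on chromosome 2. Over all tested genes it was 2.71%. The share called more negative ranged from 0.937% on chromosome 5 to 1.74% on chromosome 4, with 1.38% over all tested genes. For both directions together the range was narrower. The share of tested genes called ranged from 3.46% on chromosome 5 to 5.06% (118 of 2331) on chromosome 2, with 4.09% over all. Most called genes had no called neighbour in the same direction among the tested genes. There were 34 runs of 2 and 1 run of 3 for the more positive and 6 runs of 2 for the more negative genes. How many runs random placement would give was not worked out, so these counts show neither scatter nor clustering. Per length, the more negative genes were more abundant, with a median FPKM (fragments scaled by gene length and library total) of 17 against 9.31 for the more positive and 8.98 for all genes. Their median length was 1886 bases, against 1638 and 1640. The 146 genes of at least 4-fold had a median length of 1223 bases and a median FPKM of 1.67. Neither feature was tested.

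Single genes show how the pattern looked in each library, with the level in CPM after TMM scaling for replicates 1 to 4. Solyc12g098540.2 (chromosome 12, 1705 bases) had a large more positive difference that no left-out library ended, and it also changed in opposite directions. It had 1.14, 1.26, 2.45 and 0.705 CPM in tetrad CT and 0.0486, 0.319, 0.0501 and 0.0997 CPM in tetrad LTMH. In polarized CT it had 0.196, 0.0502, 0.185 and 2.28 CPM, and in polarized LTMH 4.28, 6.11, 7.54 and 3.74 CPM. The groups did not overlap at either stage, and polarized CT replicate 4 stood far above the other 3 of its group. Free microspore libraries ranged from 0.0565 to 0.886 CPM. The log2 difference was 6.37 ± 1.18 (SE, edgeR adjusted p = 0.00753), made of -3.38 ± 0.94 at the tetrad and 2.99 ± 0.72 at the polarized stage. Leaving out polarized CT replicate 4 made it 8.57, and leaving out tetrad LTMH replicate 2 made it 7.25.

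Solyc04g077580.3 (chromosome 4, 531 bases) was abundant in control tetrad anthers and low elsewhere. Its tetrad CT levels were 57.7, 60.3, 77.3 and 83.8 CPM, and its tetrad LTMH levels 12, 3.56, 1.96 and 2.14 CPM. At the polarized stage it had 0.294, 1.26, 4.74 and 0.759 CPM in CT and 2.91, 10.7, 4.65 and 13.3 CPM in LTMH. The polarized groups overlapped and the tetrad groups did not. Free microspore libraries of both temperatures lay between 0.749 and 2.4 CPM except CT replicate 2 at 23.5 CPM. Its log2 difference was 6.03 ± 1.25 (SE, edgeR adjusted p = 0.0129), and the heat effect passed the test at the tetrad stage (-3.82 ± 0.87, edgeR adjusted p = 0.00446) but not at the polarized stage (2.20 ± 0.92, edgeR adjusted p = 0.102). From tetrad to polarized stage its log2 change was -5.36 ± 0.97 in CT and 0.67 ± 0.83 in LTMH. The difference was 7.17 without polarized CT replicate 3 and 6.98 without tetrad LTMH replicate 1.

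Solyc09g091080.3 (chromosome 9, 7470 bases) had the most negative difference among genes averaging 1 CPM or more that stayed called with each library left out in turn. Its level was 0.738, 0.697, 0.199 and 0.587 CPM in tetrad CT and 3.55, 3.19, 3.16 and 1.4 CPM in tetrad LTMH. In polarized CT it had 0.735, 0.402, 0.615 and 1.9 CPM, and in polarized LTMH 0.299, 0.429, 0.45 and 0.256 CPM. Only the tetrad groups were apart. The heat effects differed by a log2 value of -3.67 ± 0.77 (SE, edgeR adjusted p = 0.0124), or -3.03 without polarized CT replicate 4, whose 1.9 CPM was the highest of its group. Solyc04g077400.4 (chromosome 4, 3082 bases) rose in normal development, with 0.537, 0.279, 0.398 and 0.529 CPM in tetrad CT and 2.4, 1.61, 2.83 and 2.77 CPM in polarized CT. Under heat it had 2.14, 0.531, 2.56 and 4.38 CPM at the tetrad and 1.07, 1.18, 1.75 and 1.18 CPM at the polarized stage. Tetrad LTMH replicate 2 lay among the CT values, and the polarized groups overlapped by 1 library. The log2 difference was -3.33 ± 0.67 (SE, edgeR adjusted p = 0.011), with 2.43 ± 0.51 for the developmental change in CT and -0.89 ± 0.44 in LTMH.

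**Figure D5:**
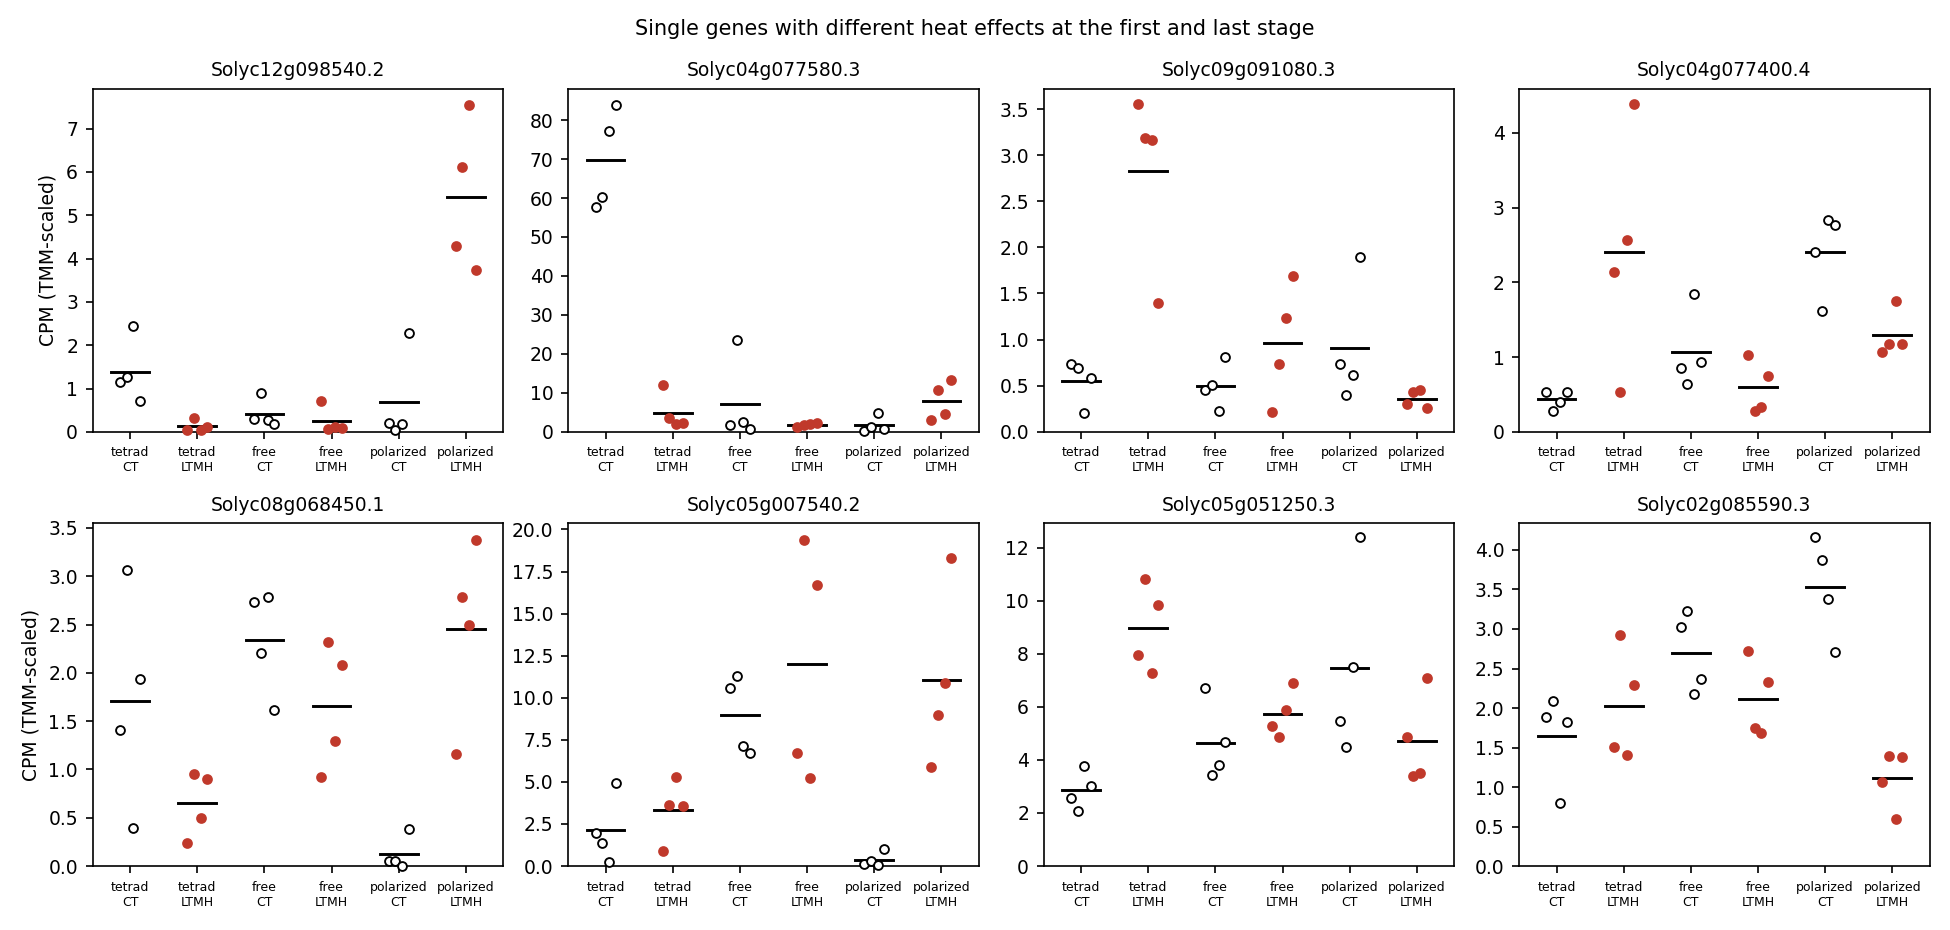
CPM after TMM scaling (vertical, from 0) by stage and temperature (horizontal) for 8 genes, 1 circle per library (open CT, filled LTMH) and a line at the group mean. Solyc12g098540.2 is lower in heated tetrad and higher in heated polarized anthers. In CT Solyc02g085590.3 is higher at the polarized than at the tetrad stage, and under LTMH it falls between the free and polarized stage.

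Genes called in opposite directions at the stages included Solyc03g112595.1 (chromosome 3, 732 bases). Its level was 8.53, 10.2, 4.84 and 4.64 CPM in tetrad CT and 0.437, 4.73, 0.903 and 0.648 CPM in tetrad LTMH. Polarized CT libraries held 0, 0.0502, 0 and 0.163 CPM, which is 4 reads in all, and polarized LTMH libraries 0.513, 1.02, 0.549 and 1.44 CPM, which is 70 reads. It was nearest the detection limit in polarized CT, but heated libraries were low too. Tetrad LTMH replicates 1, 3 and 4 had 9, 18 and 13 reads, and polarized LTMH libraries 11 to 28 reads. Tetrad LTMH replicate 2 overlapped the tetrad CT range. Its log2 difference was 5.94 ± 1.24 (SE, edgeR adjusted p = 0.0125), 7.26 without tetrad LTMH replicate 2 and 7.24 without polarized CT replicate 4.

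In the other direction, Solyc11g072800.2 (chromosome 11, 4144 bases) had 8.32, 9.28, 4.7 and 4.64 CPM in tetrad CT and 9.91, 8.02, 18.5 and 9.17 CPM in tetrad LTMH. Its polarized levels were 6.61, 6.63, 7.44 and 6.56 CPM in CT and 3.17, 3.27, 2.9 and 2.67 CPM in LTMH. The polarized groups were clearly apart, while the tetrad groups overlapped. The heat effects were 0.76 ± 0.25 and -1.18 ± 0.26 on the log2 scale, and their difference was -1.94 ± 0.36 (SE, edgeR adjusted p = 0.00771). Solyc02g088240.3 (chromosome 2, 2322 bases) had 3.62, 3.91, 2.98 and 2.82 CPM in tetrad CT against 5.3, 5.89, 4.81 and 5.78 CPM in tetrad LTMH. It had 11.5, 9.44, 7.75 and 6.02 CPM in polarized CT against 4.36, 5.14, 3.35 and 5.9 CPM in polarized LTMH. Neither pair of groups overlapped, and heated libraries held 3.35 to 5.9 CPM over both stages. The heat effects differed by a log2 value of -1.60 ± 0.32 (SE, edgeR adjusted p = 0.0102), and its rise of 1.38 ± 0.23 in CT compared with -0.22 ± 0.22 in LTMH.

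The most abundant called genes were taken by mean FPKM, 2 per direction. Their log2 differences were 1.80 and 1.33, beside a median of 1.06 for the more positive genes. In the other direction they were -1.12 and -0.51, beside a median size of 0.65 for the more negative genes. Solyc07g006380.3 (chromosome 7, 481 bases) averaged 11651.4 FPKM over the 16 libraries. Tetrad CT libraries held 4918.8, 4717.4, 4532.3 and 6054.7 CPM and tetrad LTMH libraries 7739.2, 7700.8, 6459.1 and 7921.6 CPM. Polarized CT libraries held 1397.9, 735.5, 1289.1 and 3004.7 CPM, and polarized LTMH libraries 7768.3, 8127.1, 9174.7 and 7932.9 CPM. Heated libraries were above all controls of the same stage, and the controls fell between the stages. The heat effect passed the test at the polarized stage (2.36 ± 0.28, edgeR adjusted p = 1.4e-05). It did not pass at the tetrad (0.56 ± 0.27, edgeR adjusted p = 0.146) or free microspore stage (0.80 ± 0.27, edgeR adjusted p = 0.0696). The gene took 0.077% to 0.297% of reads in polarized CT and 0.79% to 0.954% in polarized LTMH. The log2 difference was 1.80 ± 0.38 (SE, edgeR adjusted p = 0.0138). Its developmental change was -1.65 ± 0.28 in CT and 0.15 ± 0.27 in LTMH.

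Solyc11g020960.2 (chromosome 11, 1419 bases) averaged 347.2 FPKM. It had 779.3, 714.6, 623.5 and 572.1 CPM in tetrad CT and 842.7, 691.8, 565.3 and 609 CPM in tetrad LTMH, which overlapped. At the polarized stage it had 230.8, 189.4, 165.3 and 149.3 CPM in CT and 594.3, 511.4, 340.4 and 413.6 CPM in LTMH. All heated polarized libraries were higher than the controls. Its log2 difference was 1.33 ± 0.30 (SE, edgeR adjusted p = 0.0185), with a heat effect of 0.01 ± 0.21 at the tetrad and 1.34 ± 0.22 at the polarized stage.

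Among abundant more negative genes, Solyc01g086820.3 (chromosome 1, 411 bases, mean 667.5 FPKM) had 294.3, 271.7, 252.4 and 204.1 CPM in tetrad CT and 435.9, 208.5, 548.5 and 464.4 CPM in tetrad LTMH. Polarized CT libraries had 240.8, 261, 273.5 and 206.2 CPM and polarized LTMH libraries 169.3, 182.8, 170.2 and 209.5 CPM. The groups overlapped by 1 library at each stage. The heat effects differed by a log2 value of -1.12 ± 0.27 (SE, edgeR adjusted p = 0.0236), and the adjusted p rose to 0.054 without polarized CT replicate 3, 0.0542 without tetrad LTMH replicate 4 and 0.0502 without polarized LTMH replicate 1. Solyc07g065840.2 (chromosome 7, 2444 bases, mean 511.3 FPKM) had 1060.7, 1005.6, 954.3 and 1020.4 CPM in tetrad CT and 1455.8, 1443.7, 1561 and 1461 CPM in tetrad LTMH. At the polarized stage it had 1269.7, 1200.5, 1276.2 and 1166.1 CPM in CT and 1333.3, 1351.6, 1193.2 and 1182.6 CPM in LTMH. Heat raised it at the tetrad stage with no overlap, and the polarized groups overlapped. The log2 difference was -0.51 ± 0.10 (SE, edgeR adjusted p = 0.00816), and the gene was also higher in heated free microspore anthers (log2 change 0.43 ± 0.07, edgeR adjusted p = 0.000497).

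A reversed developmental course was seen in Solyc08g068450.1 (chromosome 8, 372 bases). Its levels in CT were 1.41, 3.07, 0.398 and 1.94 CPM at the tetrad and 0.049, 0.0502, 0 and 0.38 CPM at the polarized stage. In LTMH they were 0.243, 0.956, 0.501 and 0.897 CPM at the tetrad and 1.16, 2.79, 2.5 and 3.38 CPM at the polarized stage. The gene fell in CT and rose in LTMH, with no overlap between the stages at either temperature. Its log2 changes were -3.75 ± 0.71 in CT and 1.91 ± 0.54 in LTMH, and the difference was 5.66 ± 0.89 (SE, edgeR adjusted p = 0.00477), or 7.25 without polarized CT replicate 4.

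Solyc05g007540.2 (chromosome 5, 810 bases) peaked at the free microspore stage in CT. In CT it had 1.95, 1.39, 0.265 and 4.93 CPM at the tetrad, 10.6, 11.3, 7.15 and 6.74 CPM at the free microspore and 0.0979, 0.301, 0.0615 and 1.03 CPM at the polarized stage. In LTMH it had 0.923, 3.61, 5.27 and 3.59 CPM, then 6.69, 19.4, 5.22 and 16.7 CPM, then 5.9, 9, 10.9 and 18.3 CPM. The late drop of the controls was missing in heated anthers, and all heated polarized libraries lay above the controls. Its log2 difference was 4.23 ± 1.04 (SE, edgeR adjusted p = 0.0271). The adjusted p passed 0.05 without tetrad CT replicate 4 (0.0661), polarized CT replicates 1, 2 or 3 (0.0609, 0.0534 and 0.0611), tetrad LTMH replicate 4 (0.051) or polarized LTMH replicate 4 (0.0515). The difference was 3.38 without tetrad CT replicate 4 and 5.43 without polarized CT replicate 4.

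Courses turned from a rise to a fall in Solyc05g051250.3 (chromosome 5, 1158 bases). It rose in CT from 2.55, 2.09, 3.78 and 3 CPM to 5.48, 4.47, 7.51 and 12.4 CPM, and fell in LTMH from 7.97, 10.8, 7.27 and 9.82 CPM to 4.88, 3.38, 3.5 and 7.08 CPM. Stages were apart at both temperatures, and tetrad LTMH libraries lay above all tetrad CT libraries. The heat effects differed by a log2 value of -2.31 ± 0.42 (SE, edgeR adjusted p = 0.00712). Solyc02g085590.3 (chromosome 2, 2366 bases) rose in CT from 1.88, 2.09, 0.795 and 1.82 CPM to 4.16, 3.87, 3.38 and 2.71 CPM. In LTMH it moved from 1.51, 2.92, 1.4 and 2.29 CPM to 1.07, 1.39, 0.599 and 1.38 CPM. Heated and control libraries overlapped at the tetrad stage and were apart at the polarized stage. The log2 difference was -1.97 ± 0.42 (SE, edgeR adjusted p = 0.0138), with 0.30 ± 0.30 at the tetrad and -1.67 ± 0.30 at the polarized stage.

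The number of genes rested on single libraries more than the direction did. It was 365 more positive and 170 more negative without tetrad CT replicate 1 and 326 and 128 without replicate 2 of that group. It was 314 and 144 without tetrad LTMH replicate 4, 369 and 156 without polarized CT replicate 1, 310 and 123 without polarized CT replicate 3, and 375 and 148 without polarized LTMH replicate 1. More negative genes alone fell to 190 without polarized CT replicate 2, 168 without polarized LTMH replicate 2 and 185 without polarized LTMH replicate 3. Called in every one of the 16 fits with 1 library left out were 252 more positive and 91 more negative genes. No gene was called in the opposite direction under any alternative run. All runs reused the same counts, so a reversed call was unlikely from the start. The balance of directions did change with scaling, as given above.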

How the data were processed

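The authors deposited raw read counts and FPKM values per gene, and per the submitters' processing notes TopHat2 2.0.12 and HTSeq 0.6.1 were used. Genome build and annotation version: not given in the sources used here. Groups came from the labels, as did replicate numbers. Of 35768 identifiers 6727 had no read in any library. The reference table matched 0 of them, so lists of named genes and markers were not used. Gene lengths were derived from the deposited counts and FPKM.

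The deposited counts of all 24 libraries, in 6 groups, were analysed with edgeR 4.0.16 (R 4.3.3) using TMM scaling, filterByExpr (minimum count 10) and robust quasi-likelihood dispersion (18 residual degrees of freedom). Benjamini-Hochberg adjustment ran over 21429 genes, and genes were called below 0.05 with no minimum fold. Standard errors were derived from the F statistic. Replicates of a group differed by more than sampling noise in every pair. Tetrad CT replicates 1 and 2 were much the closest, with a chi-square per degree of freedom of 4.63. The other tetrad CT pairs had 38 to 56, and pairs over all groups otherwise had 11.1 to 144.4. A fit with these 2 replicates taken as 1 library is given below. Other fits used other scalings and filters, DESeq2 1.42.0, limma 3.58.1 on log2(FPKM + 1), a replicate block, 16 libraries only and each library left out in turn. The procedure was tested on simulated data.

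Genes printed are 2 per direction for each of 4 rules. The rules were the largest difference among genes called with every library left out in turn, the largest smaller heat effect among opposite calls, the highest mean FPKM, and the largest difference among reversed courses. All but the highest-FPKM rule required a mean of at least 1 CPM. Solyc12g098540.2 was chosen by the first pair of rules. The comparison, lists and rules were chosen with earlier results of these data known. Counting error alone limits low genes further, and PCR copies are not separated.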

Additional observations from a re-analysis of the deposited data

Results flagged for a closer look

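Heat acted differently on tetrad and polarized anthers, by the test of the difference itself, for 581 more positive and 295 more negative genes. Among the genes described singly, the log2 difference passed that test (edgeR adjusted p below 0.05) at 6.37 for Solyc12g098540.2, 6.03 for Solyc04g077580.3, 5.94 for Solyc03g112595.1, 5.66 for Solyc08g068450.1, 4.23 for Solyc05g007540.2, 1.80 for Solyc07g006380.3 and 1.33 for Solyc11g020960.2. In the negative direction it passed at -3.67 for Solyc09g091080.3, -3.33 for Solyc04g077400.4, -2.31 for Solyc05g051250.3, -1.97 for Solyc02g085590.3, -1.94 for Solyc11g072800.2, -1.60 for Solyc02g088240.3, -1.12 for Solyc01g086820.3 and -0.51 for Solyc07g065840.2.

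In 13 of 102 groups of 4 libraries checked, 1 library stood apart from the other 3 by Dixon's test, where chance alone gives about 1 in 20. At the polarized stage in CT these were Solyc12g098540.2 in replicate 4 (2.28 CPM), Solyc08g068450.1 in replicate 4 (0.38 CPM) and Solyc11g072800.2 in replicate 3 (7.44 CPM), and in LTMH Solyc04g077400.4 in replicate 3 (1.75 CPM). At the tetrad stage all were in LTMH: Solyc04g077580.3 in replicate 1 (12 CPM), Solyc03g112595.1 in replicate 2 (4.73 CPM), Solyc07g006380.3 in replicate 3 (6459.1 CPM) and Solyc07g065840.2 in replicate 3 (1561 CPM). At the free microspore stage, CT replicate 2 stood apart for Solyc12g098540.2 (0.886 CPM) and Solyc04g077580.3 (23.5 CPM), and CT replicate 1 for Solyc11g020960.2 (878.3 CPM). In LTMH there, replicate 1 stood apart for Solyc12g098540.2 (0.707 CPM) and Solyc03g112595.1 (0.599 CPM).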

How the results depend on the processing

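The 4 counts are those of more positive genes (581), more negative genes (295), more positive genes lower at the polarized stage on average (464) and more negative genes higher there (185). They were 961, 555, 815 and 421 with the 16 libraries alone, 1046, 677, 836 and 436 in DESeq2 (all 581 and 294 of the 295 included), 350, 146, 265 and 81 with tetrad CT replicates 1 and 2 as 1 library, 98, 28, 75 and 12 at an adjusted p below 0.01, and 20, 0, 16 and 0 against a 1.5-fold difference in edgeR (316 more negative genes at an unadjusted p below 0.05). The second and last counts were 1560 and 1172 with library totals alone, 1623 and 1226 in limma on log2(FPKM + 1) and 1549 and 1178 on log2(FPKM + 0.1); the last was 284 with upper-quartile scaling. Leaving out 1 library gave 310 to 734, 123 to 411, 238 to 560 and 70 to 235. The cause was not tested. The other settings stayed within 1.5 times. Whether replicate numbers pair the libraries was not settled, and no test of it was run. Correlations of deviations from group means were -0.38 to 0.35 for 24 same-numbered pairs (median 0.04, 5 over 0.1). For 72 other pairs they were -0.29 to 0.32 (median -0.02, 11 over 0.1). A library correlated best with its own number, 1 of the 4 in each other group, in 19 of 48 cases. With the replicate number as a block, 692 more positive and 343 more negative genes were called. No gene described singly changed direction. Depth limits the counting precision of genes near 0 CPM in polarized CT. Median standard errors exceeded 1 on the log2 scale for the steepest genes, and the part of depth and of the spread between libraries in this was not tested.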

Other observations

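The genes that rose most from tetrad to polarized stage were few and uneven between libraries. The 42 genes that rose by more than 6 on the log2 scale, averaged over temperatures, summed to 2329.0, 2682.5, 3934.0 and 13151.9 CPM in polarized CT replicates 1 to 4 and to 3873.6, 3376.2, 5390.8 and 3794.9 CPM in polarized LTMH. Polarized CT replicate 4 lay above all other libraries. For a different heat effect, edgeR and DESeq2 each called 0 of the 42 genes (1 each at an unadjusted p below 0.05), and limma on log2(FPKM + 1) called 1. Their median log2 difference was -0.44, with a median standard error of 1.73. Of 366 genes that rose by between 3 and 6, edgeR called 4 more negative and 0 more positive (48 and 7 at an unadjusted p below 0.05), DESeq2 14 and 3, and limma 21 and 16, with a median difference of -0.80 and a median standard error of 1.11. In tetrad CT the 305 steeply falling genes summed to 138947.8, 135022.9, 151043.2 and 91381.8 CPM, and in tetrad LTMH to 90395.5, 81511.0, 81402.2 and 39839.4 CPM, so that replicate 4 was the lowest of both groups.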
